A study of Mus musculus with 2 samples.

Results

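The genes described here encode the subunits of the proteasome and the factors that assemble it, and their RNA was compared between a control culture and an ID2-overexpressing culture of 46C mouse embryonic stem cells. Members were the rows of the deposited expression table whose symbol starts with Psm, a letter from a to g and a number, and whose mean over both libraries was at least 50. They numbered 48 of 14398 rows, and of 12679 rows at or above that floor. No matching row lay under the floor. The lowest members were Psme2b, with a mean of 53.5, and Psmb9, with 87.9. Psmb8 and Psmb11 match the pattern by name but have no row, so no level can be given for them. Because the floor used the measured values, and because members were chosen with earlier results known, the values below are a description.

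The 46C line of mouse embryonic stem cells reports activity of the neural gene Sox1 through green fluorescent protein. The control culture carried the empty vector, named PB in the labels, and the other culture carried PB-ID2 and overexpressed ID2, a helix-loop-helix protein that binds E proteins and keeps them from DNA. Both cultures were at passages 21 to 24 on gelatin in serum medium with leukemia inhibitory factor. Each group had 1 library, so the spread between replicates is not known, and no difference could be tested or given an error. Whether the cultures were pools or clones of transfected cells is not given in the sources used here. "Higher" and "lower" compare the ID2 library with the control library, and 1 was added to each value before the log2 ratio was taken. These are bulk cultures, so a lower value can mean fewer cells of a kind or less RNA per cell.

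The Id2 value was 324 with the empty vector and 26225 with PB-ID2. All 7 listed stem cell markers, Pou5f1, Sox2, Nanog, Zfp42, Esrrb, Dppa5a and Tdgf1, were above the floor, between 9009 and 27618 in the control library. Of the 7, 6 were higher and 1 was lower (median log2 ratio 0.23), beside 50.2% of genes with a mean of 1000 or more higher. On the whole steps described below 5 were higher, 1 was lower and Tdgf1 was equal. Zfp42 stood at 9009 and 16218 (0.85) and Esrrb at 14946 and 20873 (0.48). Of 10 fibroblast or feeder markers, 4 were above the floor. Of these 3 were lower, beside 50.2% of all genes above the floor, with Col1a1 at 339 and 139. A further 2 had rows under the floor and 4 had none. Summed over the 6 rows, these markers stood at 2227 and 1436. Of 4 neural markers 3 were above the floor, 2 of them higher, beside 49.8% of all genes. Among them Sox1, the reporter locus of the line, stood at 386 and 782 (1.02). Of 4 extraembryonic endoderm markers 2 were above the floor, both at low values. Sox7 was higher, at 16.9 and 127 (2.83), and Gata4 was lower, at 146 and 76.4 (-0.93). The part of all these markers in the differences below was not tested.

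The proteasome degrades proteins that carry ubiquitin chains. Its core particle is a barrel of stacked rings: the outer alpha rings gate the channel and the inner beta rings hold the protease sites. A regulatory particle caps the barrel. Its base contains a ring of ATPases that unfold substrates, and its lid removes ubiquitin. Dedicated chaperones build both particles, and other caps, the activators, open the core without using ATP. In embryonic stem cells high proteasome activity has been tied to the maintenance of the undifferentiated state.

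Most proteasome genes stood slightly higher in the ID2 library. Of the 48 members, 37 were higher and 11 lower, where 49.8% of all genes above the floor were higher. The deposited values are whole multiples of a step that differs slightly between libraries, and on these whole numbers 35 members were higher, 11 lower and 2 equal, beside 47.2% of all genes higher. The median log2 ratio was 0.14 for the members and -0.0023 for all genes above the floor. The differences were small: 10 members were at least 1.2-fold higher, a share close to the 22.0% of all genes, and 1 was at least 1.2-fold lower, beside 20.3%. Psmb9 alone was at least 1.5-fold apart, on the lower side, where 6.59% of all genes lay, and 8.0% of all genes were at least 1.5-fold higher. No member was at least 2-fold apart in either direction, beside 2.53% of all genes higher and 1.86% lower. In the authors' deposited table every one of the 48 had an adjusted p of 1, and the lowest unadjusted p was 0.137, for Psmc4.

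The members spread less than genes at large. The 25th and 75th percentiles of their log2 ratios were 0.01 and 0.21, against -0.21 and 0.22 over all genes above the floor. Part of this narrowness goes with level, since the median of the members' means was 3468 and that of all genes 789, and ratios of highly expressed genes spread less. At a mean of 1000 or more, a floor added after seeing the data, the percentiles were 0.04 and 0.21 for 37 members and -0.15 and 0.16 for 5459 genes. Of those 37 members 31 were higher and 6 lower, beside 50.2% of the genes higher; 8 were at least 1.2-fold higher, beside 15.3% of the genes, and 0 at least 1.2-fold lower, beside 12.7%. Of the 11 members under 1000, 6 were higher and 5 were lower (median 0.04), beside 49.5% of genes with means from 50 to 1000 higher.

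**Figure D1:**
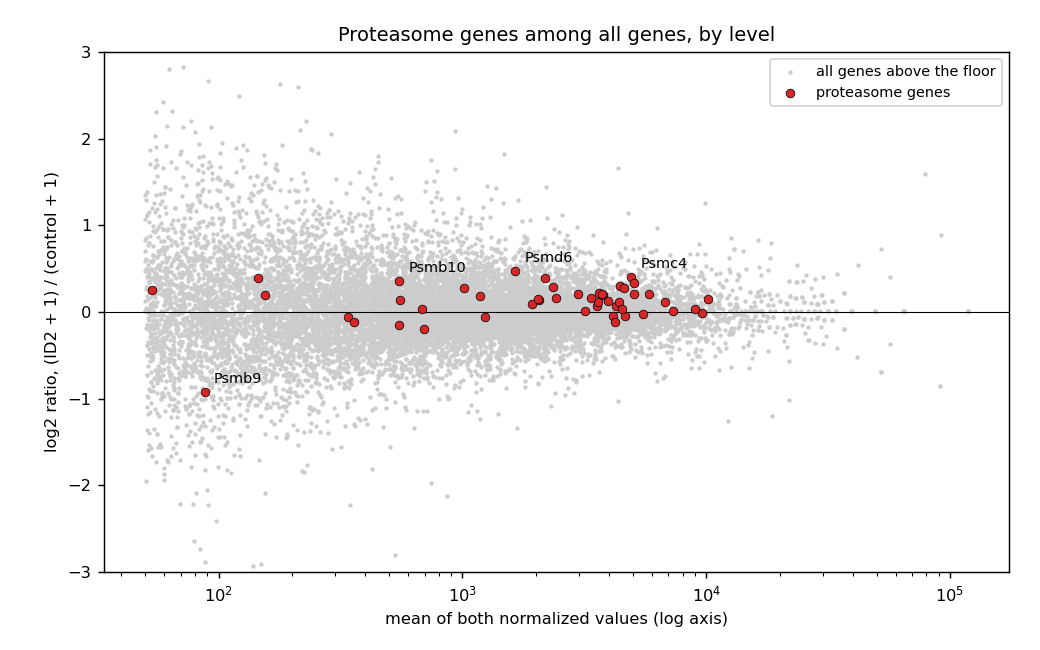
Log2 ratio of ID2 to control against the mean of both normalized values (log axis) for all genes above the floor (grey) and the 48 proteasome genes (red). Most proteasome genes lie at means above 1000, where 31 of 37 sit above 0; 7 genes with log2 ratios beyond 3 in either direction lie outside the plotted range.

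The alpha subunits form the gate and the docking surface of the core. Of 8, 7 were higher and 1 was lower, beside 49.8% of all genes above the floor higher. The median log2 ratio was 0.14, with a range from -0.04 to 0.21. Psma1 stood at 2773 in the control and at 3197 with ID2 (0.21), and each pair of values below gives the control library before the ID2 library. Psma2 stood at 3518 and 4025 (0.19). Psma5, at 2281 and 2541 (0.16), and Psma6, at 3459 and 3758 (0.12), lay in the middle of the group. Psma3 (3483 and 3654) and Psma7 (4181 and 4375) both had a log2 ratio of 0.07, and Psma4 (4204 and 4084, -0.04) was the lower one. Psma8, the testis-specific alternative to Psma7, stood far below the rest at 144 and 166 (0.20).

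Of the 7 constitutive beta subunits 5 were higher and 2 were lower (median 0.11). The 3 catalytic subunits were all higher. Psmb5, which carries the chymotrypsin-like site, stood at 919 and 1116 (0.28), the 1 ring subunit that was at least 1.2-fold higher. Psmb6, which carries the caspase-like site, stood at 5420 and 6270 (0.21). Psmb7, which carries the trypsin-like site, stood at 1874 and 2002 (0.10). Of the subunits without a protease site, Psmb2 stood at 3183 and 3552 (0.16) and Psmb4 at 4214 and 4552 (0.11), while Psmb3 (5583 and 5479, -0.03) and Psmb1 (4727 and 4595, -0.04) were slightly lower. In the constitutive rings together, leaving out Psma8, 11 of 14 genes were higher, beside 50.2% of genes with a mean of 1000 or more. Their log2 ratios had a range of -0.04 to 0.28.

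Proteasome genes are known targets of NFE2L1, a transcription factor that binds antioxidant response elements and raises proteasome synthesis when degradation is blocked. Promoter windows from RefSeq (build GRCm38.p6, from 250 bases before to 50 after the start) were found for 40 of the 48 members. The core of that element, TGACNNNGC on either strand, was present in 6 of the 40 (15.0%), beside 17.0% of 9397 genes above the floor and 14.0% of all 27025 genes with a window. CCAAT on either strand was present in 14 of the 40 (35.0%), beside 43.4% and 41.1%. The members with the element core were Psmb5, Psmb6, Psmc6, Psmd9, Psmd12 and Psme4, with log2 ratios between 0.01 and 0.28. A match of these letters is not evidence of binding. The stretches before the start of the catalytic genes Psmb5 and Psmb6 are printed to show where the match lies; parts that overlap an annotated exon are left out, and capitals mark TGACNNNGC.
Psmb5, chr14:54618023-54618245, minus strand: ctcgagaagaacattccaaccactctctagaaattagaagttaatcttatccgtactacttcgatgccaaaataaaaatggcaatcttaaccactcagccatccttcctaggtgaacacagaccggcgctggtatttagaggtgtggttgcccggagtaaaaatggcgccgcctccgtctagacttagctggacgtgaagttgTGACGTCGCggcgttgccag
Psmb6, chr11:70525107-70525356, plus strand: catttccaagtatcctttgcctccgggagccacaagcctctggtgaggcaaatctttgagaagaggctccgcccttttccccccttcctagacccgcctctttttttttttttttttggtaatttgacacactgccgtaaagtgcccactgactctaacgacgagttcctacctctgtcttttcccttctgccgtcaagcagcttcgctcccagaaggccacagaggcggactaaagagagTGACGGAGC
In Psmb5 the match begins 47 bases before the start, and in Psmb6 it begins 9 bases before it.

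The inducible catalytic subunits replace the constitutive ones when interferon is present and form the immunoproteasome, which favors peptides for class I presentation. The listed ones went in opposite directions. Psmb9, which takes the place of Psmb6, stood at 115 and 60.3 (-0.93), the lowest ratio of all members. Psmb10, which takes the place of Psmb7, stood at 484 and 619 (0.36). Psmb9 had the 2nd lowest mean of the members, and ratios spread widely at low levels (5th and 95th percentiles -0.81 and 0.92 over genes with means from 50 to 1000); in the authors' deposited table its unadjusted p was 0.301. Psmb9 lies in the class II region of the major histocompatibility complex, head to head with Tap1, a peptide transporter subunit, and near Psmb8 and Tap2. In the GENCODE M21 annotation 12.6% of its exon bases lie on exons of Tap1 on the other strand, and the library kit does not mark strand, so reads there cannot be told apart. Tap1 stood at 585 and 366 (-0.68), Tap2 at 61.7 and 46.2 (-0.41) and H2-DMa, 3 genes away, at 302 and 181 (-0.73), while Brd2, 4 genes away, was higher at 6090 and 8702 (0.51). Of the other neighbors within 6 places that have a row, all at low values, H2-DMb1 (39.8 and 30.1) and H2-Ab1 (61.7 and 38.2) were lower. Col11a2 (25.9 and 48.2) was higher. The neighbors were taken by position, and those of Psmb10 and Psme1 lay on both sides.

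The 6 ATPases of the base form the ring that grips and unfolds substrates and opens the gate of the core. They had the highest median of the role groups with more than 1 member, 0.28. All 6 were higher as deposited, beside 50.2% of genes with a mean of 1000 or more, and on whole steps 5 were higher and 1 was equal. Psmc4 stood at 4241 and 5631 (0.41, 1.33-fold), the 2nd highest ratio of the 48. Psmc1, at 3970 and 4903 (0.30), and Psmc2, at 2127 and 2595 (0.29), followed. Psmc3 stood at 4148 and 5030 (0.28) and Psmc5 at 3372 and 3931 (0.22). Psmc6 stood apart from the other 5, at 3157 and 3187 (0.01), and its whole steps were the same number in both libraries, 3172. Of the 6, 4 were at least 1.2-fold higher, beside 15.3% of all genes with a mean of 1000 or more, as these 6 have.

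The other base subunits are scaffolds and ubiquitin receptors. Psmd1 stood at 9651 and 10672 (0.15) and Psmd2 at 9675 and 9617 (-0.01). Psmd4, a receptor that binds ubiquitin chains, stood at 4464 and 4562 (0.03).

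The lid subunits surround Psmd14, the metalloprotease that cuts ubiquitin chains from substrates. Of 8 lid genes 7 were higher and 1 was lower (median 0.14), and on whole steps 6 were higher. Psmd6 stood at 1382 and 1913 (0.47, 1.38-fold), the highest ratio of the 48. Psmd7, the partner of Psmd14 in the catalytic pair, stood at 4484 and 5637 (0.33), and Psmd14 itself at 1964 and 2165 (0.14). Psmd13 stood at 3459 and 3999 (0.21), Psmd12 at 3768 and 4128 (0.13) and Psmd8 at 6492 and 7012 (0.11). Psmd3, at 7253 and 7323, had equal whole steps (7288) in both libraries. Psmd11, a subunit that clamps the regulatory particle to the core and whose high level has been linked to proteasome activity in human embryonic stem cells, was the lower one at 4404 and 4074 (-0.11). Base and lid together had 15 of 17 genes higher as deposited, beside 50.2% of genes with a mean of 1000 or more. On whole steps 13 were higher, 2 lower and 2 equal, beside 2531 of those 5459 genes higher. Of the 17, 6 were at least 1.2-fold higher, beside 15.3%.

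The stretches before the starts of Psmd6 and Psmc4 are printed because these genes had the highest ratios of the members. Neither RefSeq window held TGACNNNGC or CCAAT, and parts on annotated exons are again left out.
Psmd6, chr14:14120985-14121195, minus strand: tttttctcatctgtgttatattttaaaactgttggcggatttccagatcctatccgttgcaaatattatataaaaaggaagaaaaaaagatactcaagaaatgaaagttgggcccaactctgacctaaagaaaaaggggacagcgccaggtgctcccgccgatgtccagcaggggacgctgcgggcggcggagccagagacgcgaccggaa
Psmc4, chr7:28050102-28050342, minus strand: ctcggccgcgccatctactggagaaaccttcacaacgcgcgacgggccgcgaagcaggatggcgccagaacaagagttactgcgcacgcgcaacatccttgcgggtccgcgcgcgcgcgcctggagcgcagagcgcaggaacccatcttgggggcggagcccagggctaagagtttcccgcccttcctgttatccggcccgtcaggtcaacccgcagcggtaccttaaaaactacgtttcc

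**Figure D2:**
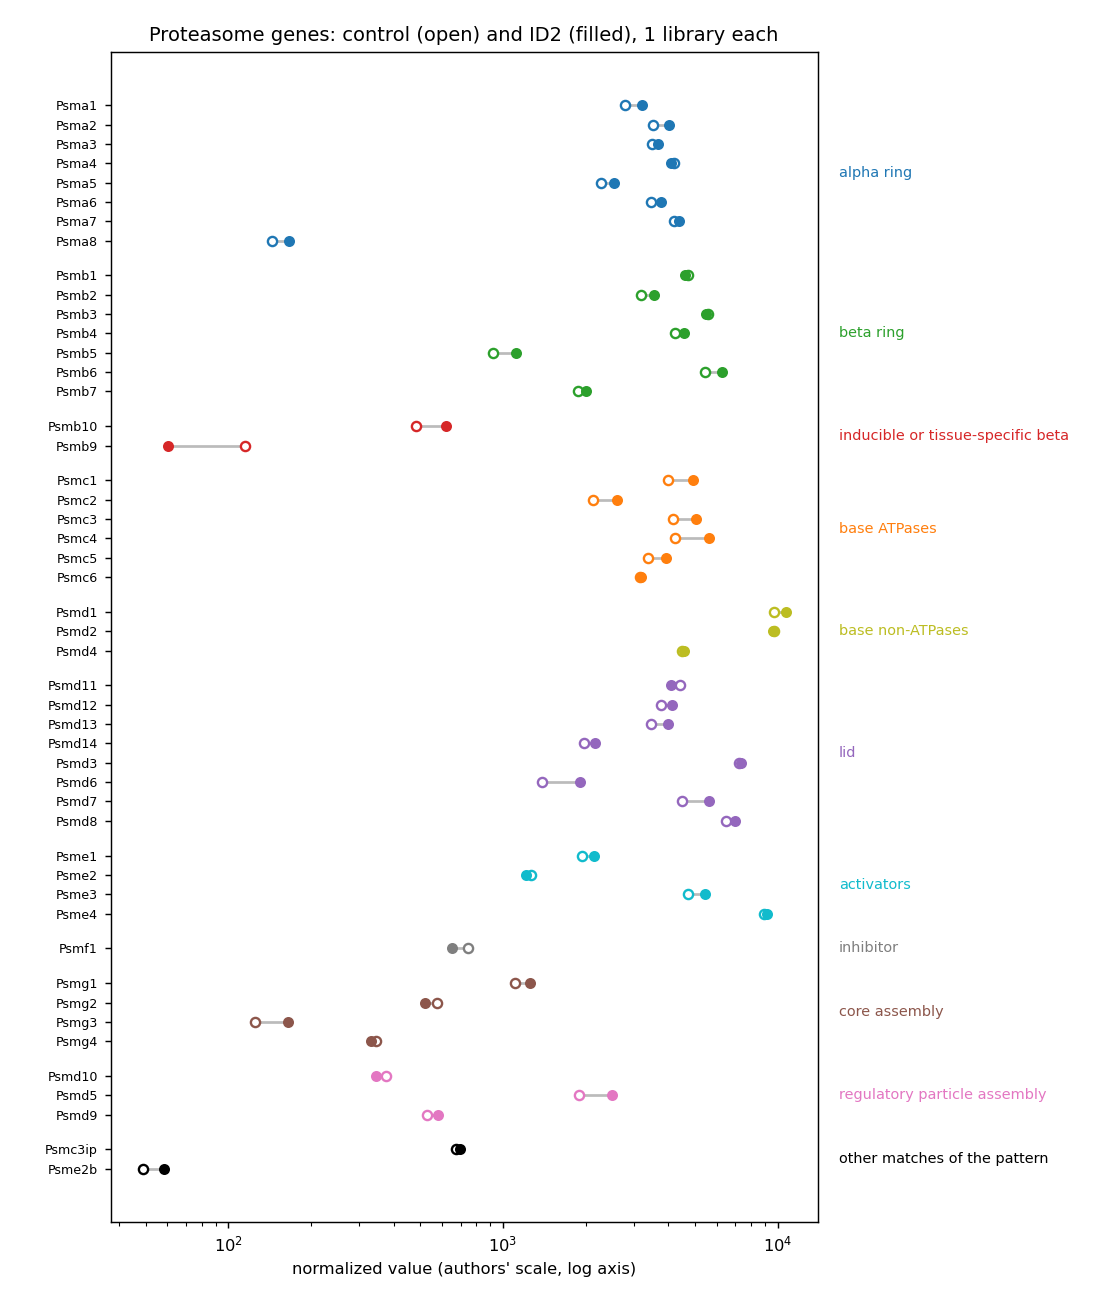
Normalized value of each of the 48 members in the control library (open circle) and the ID2 library (filled circle) on a log axis, grouped by role; each circle is 1 library. The filled circle lies to the right for 37 members, and the widest gap is that of Psmb9 (115 and 60.3), to the left.

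The activators cap the core in place of the regulatory particle. Psme1 and Psme2 form the interferon-responsive cap; they stood at 1935 and 2146 (0.15) and at 1266 and 1212 (-0.06). Psme3, which forms a nuclear cap of its own, stood at 4719 and 5432 (0.20). Psme4, a large single-chain cap linked to histone degradation, stood at 8892 and 9118 (0.04). Psmf1, a proline-rich protein first described as a proteasome inhibitor, stood at 744 and 651 (-0.19), the 2nd lowest ratio of the members. The genes tied to interferon in these classes stood on both sides: Psmb9 and Psme2 were lower and Psmb10 and Psme1 higher.

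Assembly factors were mixed, with 4 of 7 higher, beside 49.8% of all genes above the floor. Psmg1 and Psmg2 act as a dimer that starts the alpha ring, and stood on opposite sides, at 1110 and 1258 (0.18) and at 577 and 519 (-0.15). Psmg3 and Psmg4 form a further dimer, and they too differed in direction: Psmg3 stood at 125 and 165 (0.39), a low level, and Psmg4 at 345 and 332 (-0.06). The chaperones of the base bind particular ATPases. Psmd5, which binds Psmc1 and Psmc2 during assembly, stood at 1892 and 2484 (0.39), beside 0.30 and 0.29 for those ATPases. Psmd9, which binds Psmc3 and Psmc6, stood at 527 and 581 (0.14), beside 0.28 and 0.01. Psmd10, known as gankyrin, which binds Psmc4, stood at 374 and 346 (-0.11), beside 0.41, so that chaperone and client differed in direction there. The lower genes, Psmg2, Psmg4 and Psmd10, all had means under 1000. Their ratios lay between the 25th and 75th percentiles of genes with means from 50 to 1000 (-0.28 and 0.30), so their direction alone says little.

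The pattern also takes in a pair of genes outside these classes. Psmc3ip, a cofactor of meiotic recombinases named for its binding to a proteasome ATPase, stood at 677 and 694 (0.04). Psme2b, a retrogene copy of Psme2 in the annotation, stood at 48.8 and 58.3 (0.25). Without both, 35 of 46 genes were higher and the median was 0.14.

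**Figure D3:**
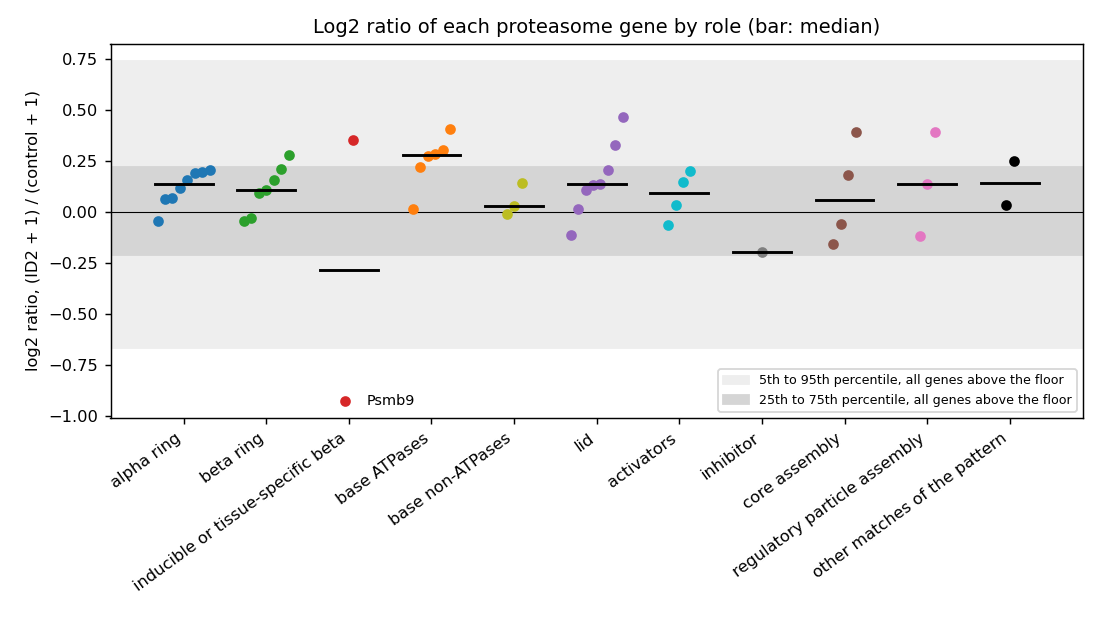
Log2 ratio of each member by role (points) with the median of the role (bar); the grey bands span the 25th to 75th and the 5th to 95th percentile of all genes above the floor. Of the 6 base ATPases 5 lie between 0.22 and 0.41, and Psmb9 (-0.93) is the 1 member outside the wider band.

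Many proteasome genes have processed copies elsewhere in the genome, which can take up or lose reads. In GENCODE M21 transcripts, 24 of the 48 members had at least 1 window of 50 bases that also occurs in a transcript of another gene. For 16 this held for over 10% of windows. Windows were matched on either strand, so overlapping neighbors count as well as copies, as Nek6 does for Psmb7 and Tap1 for Psmb9. The highest shares were those of Psme2b (69.3%) and Psme2 (59.3%), which share windows with each other, Psmb5 (57.1%), Psmb3 (55.8%) and Psma5 (55.4%). The values of these genes are uncertain for this reason, since the counting of such reads is not given in the sources used here. Among the 32 members with at most 10% of windows shared, 27 were higher and 5 lower (median 0.14), and among the other 16, 10 were higher and 6 lower (median 0.08). Psmc4 and Psmd6 had 0 shared windows. Exons of a gene on the other strand covered over 10% of the exon bases of 5 members, Psmb7, Psmb9, Psmc3, Psmd13 and Psmc3ip. Shared windows and strand overlaps were not counted over all genes, so whether proteasome genes differ from others in them was not tested.

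Levels can be compared between genes only per length, and were divided by the length of a principal transcript in GENCODE M21. In normalized value per kilobase, the medians in the control library were 2075 for the alpha ring, 3562 for the beta ring, 2515 for the base ATPases, 3101 for the other base subunits and 1859 for the lid. The activators had a median of 1555 per kilobase, while core assembly factors had 584 and regulatory particle assembly factors 262. The inducible beta subunits, with Psmb9 and Psmb10, had 227. By these control medians the core rings, base and lid stood above the assembly factors, and the inducible subunits below them. In the ID2 library the inducible subunits, at 258, lay above the regulatory particle assembly factors, at 242, so that order was not kept. Psmf1 stood at 195 per kilobase in the control library. Subunits that enter the complex in equal numbers did not have equal RNA levels. In the beta ring Psmb3 stood at 7288 and Psmb6 at 6792 per kilobase and Psmb5 at 1022, a 7.13-fold range. Psmb3 and Psmb5 share most of their windows with other genes. Without them, a choice made after seeing the data, the range was 4.20-fold, from Psmb7 (1615) to Psmb6. Psmb7 itself shares 28.1% of its windows, and 34.9% of its exon bases lie on exons of Nek6 on the other strand. Both ranges are therefore uncertain. Psmb1, with 2.8% of windows shared, stood at 2689 by principal transcript and at 1379 by joined exons. In the base ATPases the range was 2.47-fold, from Psmc2 (1191) to Psmc4 (2945). In the lid it was 3.39-fold, from Psmd6 (997) to Psmd3 (3377). In the ID2 library the range was 6.33-fold in the beta ring (4.55-fold without Psmb3 and Psmb5), 2.74-fold in the ATPases and 2.58-fold in the lid. The inducible Psmb10 stood at 369 and 472 per kilobase, beside 1615 and 1726 for Psmb7, and Psmb9 at 85.4 and 44.6, beside 6792 and 7858 for Psmb6. Annotated 3' ends may differ from those used in these cells, which was not measured. Psma3 (2846 bases) and Psma2 (2911 bases) have the longest principal transcripts of the alpha ring, so their levels of 1224 and 1208 per kilobase depend on that choice.

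**Figure D4:**
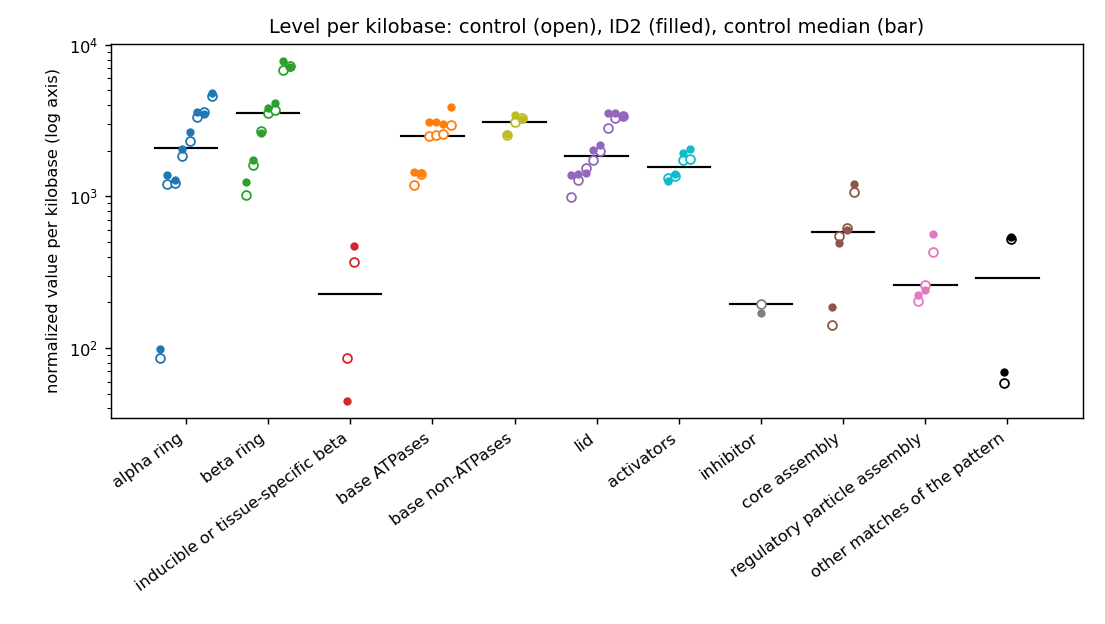
Normalized value per kilobase of principal transcript (log axis) for each member by role, control library open and ID2 library filled, with the control median as a bar. The core rings, base and lid have medians from 1859 to 3562, the assembly factors from 262 to 584 and the inducible beta subunits one of 227; Psma8, Psmb9 and Psme2b are the lowest genes.

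Proteasome genes whose names lie outside the pattern were close to level in number. Of the 9 with a row, 5 were higher and 4 were lower (median 0.03), beside 49.8% of all genes higher. Shfm1, a small lid subunit, stood at 1970 and 1630 (-0.27). Usp14, a deubiquitinase that docks on the base, stood at 3240 and 3000 (-0.11), and Akirin2, which brings proteasomes into the nucleus, at 1266 and 1160 (-0.13). Txnl1, a thioredoxin-like protein of the regulatory particle, stood at 2035 and 2184 (0.10). The ubiquitin receptor Adrm1 (4729 and 4976, 0.07) and the core maturation factor Pomp (2124 and 2169, 0.03), both chosen after their values were seen, were close to level.

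Upstream of the proteasome, p97 and the shuttle factors extract substrates and carry them to the receptors. Of 10 such genes 5 were higher and 5 were lower as deposited (median -0.0093), beside 50.2% of genes with a mean of 1000 or more higher. On whole steps 4 were higher, 5 lower and 1 equal. Faf2 stood at 1615 and 2261 (0.49) and Ubqln2 at 1413 and 1881 (0.41). Ufd1l, a cofactor of p97, stood at 1302 and 1081 (-0.27), and Faf1 at 3343 and 2812 (-0.25). The gene of p97 itself, Vcp, stood at 9314 and 9106 (-0.03), chosen after its values were seen.

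Ubiquitin genes and activating enzymes had 2 higher and 2 lower as deposited (median -0.04), beside 50.2% of genes with a mean of 1000 or more higher. Ubb, a polyubiquitin gene, stood at 18249 and 16998 (-0.10), and Rps27a, a fusion of ubiquitin and a ribosomal protein, at 19207 and 17030 (-0.17). The activating enzymes were close to level, with Uba6 at 1286 and 1334 (0.05) and Uba1 at 16737 and 16900 (0.01), whose whole steps were the same number in both libraries.

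Genes that control proteasome transcription had 4 higher and 5 lower (median -0.03), beside 49.8% of all genes above the floor higher. Nfe2l1 itself, chosen after its values were seen, stood at 9189 and 8464 (-0.12). Its activating protease Ddi2 stood at 1322 and 1668 (0.34), and Ngly1, the glycanase that processes it, at 89.6 and 123 (0.45). Mafk, a small MAF partner, stood at 481 and 382 (-0.33). Keap1, which holds the related factor NRF2 (Nfe2l2) in check, stood at 392 and 679 (0.79). Of 6 targets of NRF2, 5 were higher and 1 was lower (median 0.20). All 6 have means of 1000 or more, where 50.2% of genes were higher. At least 1.2-fold higher were 2 of the 6, beside 15.3% of those genes. Srxn1, which repairs peroxiredoxins, stood at 735 and 1698 (1.21), and Nqo1, a quinone reductase, at 856 and 1369 (0.68). Hmox1, heme oxygenase, stood at 1411 and 1628 (0.21), and Gclc, of glutathione synthesis, at 2877 and 2446 (-0.23). In the authors' deposited table Srxn1 had an unadjusted p of 4.0e-04 and an adjusted p of 0.115.

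Antigen processing and interferon genes were mostly lower, as Psmb9 was. Of the 8 above the floor 7 were lower and 1 was higher as deposited (median -0.32), beside 50.2% of all genes lower. H2-K1, a class I heavy chain, stood at 1680 and 995 (-0.76) and H2-D1, another, at 1286 and 960 (-0.42); reads of both may also match related class I genes. Tapbp, the 1 higher gene, stood at 880 and 883 (0.01) and was lower on whole steps (884 and 879). Nlrc5, the activator of class I genes, lay under the floor at 42.8 and 22.1.

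**Figure D5:**
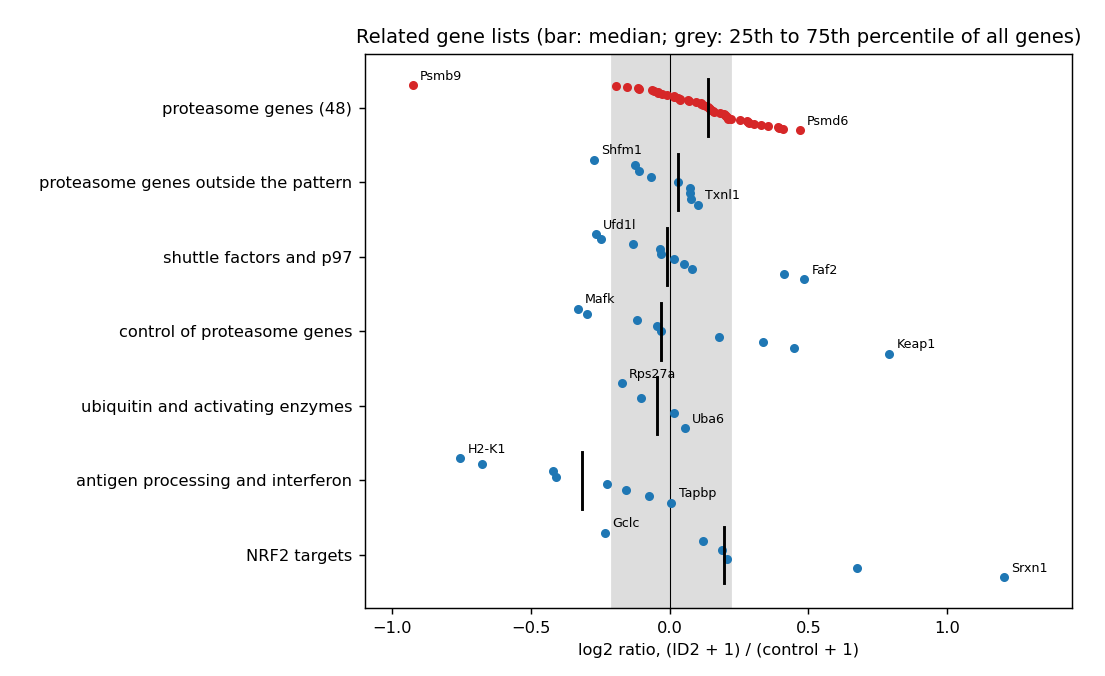
Log2 ratio of the 48 proteasome genes (red) and of the genes above the floor in 6 related lists (blue), with medians as bars and the 25th to 75th percentile of all genes in grey; the lowest and highest gene of each row is named. Medians run from -0.32 for antigen processing to 0.20 for NRF2 targets, and that of the proteasome genes is 0.14.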

How the data were processed

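Per the labels' protocols, Trizol was used for the RNA and a TruSeq RNA kit (v2) for the libraries. STAR, DESeq and the build mm9 are named, per the submitters' processing notes. How reads were counted, on which annotation and with which versions, is not given in the sources used here. As their result, the authors deposited 1 table of 14398 genes with a normalized signal per library and its mean, the fold (ratio of ID2 to control), the log2 of that fold, and p-values before and after adjustment. The ratio equals the quotient of both values. With 1 library per group the p-values rest on no spread between replicates and are quoted only as the authors'.

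Each deposited signal was a whole number of steps (0.995 in the control, 1.00 in the ID2 library, within 4.6e-05 of a step). Sorted, the whole numbers were identical in both libraries and summed to 25224015 in each. The values had therefore been set to 1 common distribution, a step that no label records. Reads per library are unknown, no counting interval can be given, and a shift shared by all genes would have been removed.

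From these values log2((ID2 + 1)/(control + 1)) was computed (Python 3.11.15, pandas 2.3.3, numpy 2.4.6). Genes with a mean of at least 50 were kept (12679). A gene was counted as apart by size alone, at 1.2-fold, 1.5-fold or 2-fold, and no test was run. Members, lists and rules were chosen with earlier results of these data known. All members are named, and of each related list up to 4 genes with the largest absolute log2 ratio; other named genes are identified, and 3 genes of these lists are not reported here and were left out of the list summaries. Lengths, shared windows and strand overlaps come from GENCODE M21 (mouse build GRCm38), whose coordinates were not set against mm9. Promoters come from RefSeq (GRCm38.p6). Alternatives were a rescaling to a median ratio of 1, whole steps, pseudocounts of 0.1 and 10, no floor, floors of 250 and 1000, the authors' log2 column, the list without Psmc3ip and Psme2b, joined exons as length, the rings without Psma8, and the beta ring without Psmb3 and Psmb5. A planned comparison of protein sequences was not run.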

Additional observations from a re-analysis of the deposited data

How the results depend on the processing

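Of 815 recomputed values, 796 stayed within 0.1 on the log2 scale, or within 1.5 times for counts and levels per kilobase, 18 moved and 1 reversed; several alternatives could hardly move a ratio by that much, so this is no measure of stability. The 1 reversal was the median log2 ratio of the inducible beta subunits, which went from -0.29 to 0.36 with a floor of 250. Psmb10 was then the 1 gene left of Psmb9 and Psmb10. At that floor the median went from 0.06 to -0.058 for core assembly factors and from 0.14 to 0.037 for the other matches of the pattern. There 3395 genes were at least 1.2-fold apart, against 5372 with the main floor of 50. With a floor of 1000, added after seeing the data, 6 members were lower and 1527 genes were at least 1.2-fold apart. The median then went from 0.06 to 0.18 for core assembly factors (Psmg1 alone). It went from 0.14 to 0.39 for regulatory particle assembly factors (Psmd5 alone). For antigen processing genes it went from -0.32 to -0.59, with H2-K1 and H2-D1 alone left. At 1.5-fold 1 member and 1849 genes were apart, and at 2-fold 0 members and 557 genes. The medians of all members, the alpha ring, the beta ring, the base ATPases and the lid moved by less than 0.1 under every alternative run. No paired analysis was possible because each group had 1 library, and for the same reason no library could be left out. The depth of both libraries is unknown, so the members' differences cannot be set against counting error.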
